A study of Cuscuta campestris with 9 samples.

Results

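The proline and threonine pre-tRNAs of the parasitic plant Cuscuta campestris (dodder) were followed through a sequencing experiment on short RNAs. The members were all pre-tRNA genes in the deposited table whose name ends in an anticodon of proline or threonine. There were 31 of them, 15 for proline and 16 for threonine, among 496 listed pre-tRNA genes and 626 loci of all kinds. RNA came from haustoria, the organs with which dodder enters a host, induced here in the absence of one. Shoot tips of the wild-type strain "Dotti", raised on beets, were kept for 4 days under far-red light and pressed on 3% agar, and the regions with haustoria were cut out, as the labels describe. Each of 3 RNA samples was divided into a part treated with RppH, a part treated with the decapping enzyme Dcp, and an untreated part, which gave 9 libraries, 3 per treatment. All 3 parts of an RNA sample therefore hold the same RNA, and the treatments differ in which 5′ ends can enter a library. Whether different plants were used for each RNA sample is not stated, so a p-value speaks only of the variation among these libraries, which may be technical.

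A tRNA gene is transcribed by RNA polymerase III from promoter elements inside the gene, and the primary transcript starts with a 5′ triphosphate and carries a short 5′ leader and a 3′ trailer that usually ends in uridines. RNase P removes the leader, RNase Z removes the trailer, and the CCA end is added afterwards, while the La protein protects the uridine tail of the precursor. The ligation used for these libraries needs a 5′ monophosphate. RppH, a pyrophosphohydrolase, converts a triphosphate (and a cap) to a monophosphate, whereas Dcp acts on capped ends. In the submitters' reading, RNAs that gain from both enzymes probably had a cap, and those that gain from RppH but not Dcp probably had a triphosphate. Proline tRNAs read the CCN codons and threonine tRNAs the ACN codons. An anticodon that starts with A is normally modified to inosine in the mature nuclear tRNA, which lets it read several codons of the box. The anticodons in the gene names, AGG, CGG and TGG for proline and AGT, CGT, TGT and GGT for threonine, are those of the named amino acids in the standard code.

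Library totals ran from 24974484 to 46034864, and a single count was worth 0.0217 to 0.04 TPM (the deposited level, scaled by the library total and not by length). The members held 373 counts in all, 190 for proline and 183 for threonine, so most single genes rest on few molecules. Each row of the table is a form, that is, an RNA with 1 defined 5′ end and 1 defined 3′ end, and the members had 92 forms, 36 for proline and 56 for threonine. Forms were summed per gene. A count is a full-length RNA, so levels of genes were compared without dividing by length. The listed genes had at least 1 count each, so genes that were never seen are not in the list. The table lists no messenger RNA, and the tissue label was not checked here against marker genes. The RNA came from whole tissue, in which more cells with a transcript and more transcript per cell cannot be told apart.

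Proline pre-tRNAs were seen almost exclusively after RppH. Their summed level was 1.68, 1.80 and 2.55 TPM after RppH in RNA samples 1 to 3 (46, 45 and 85 counts), 0.117, 0.122 and 0.103 TPM after Dcp (3, 5 and 3 counts), and 0.0726, 0 and 0 TPM in untreated RNA (3, 0 and 0 counts). In TPM the treatments did not overlap: the lowest RppH library stood above every Dcp library, and the lowest Dcp library above every untreated one. The lowest Dcp library and the highest untreated library held 3 counts each, however, and differed only through their totals of 29011242 and 41321715. The means were 2.01 ± 0.471 TPM after RppH, 0.114 ± 0.0098 TPM after Dcp and 0.0242 ± 0.0419 TPM untreated (SD, n = 3 each). The Dcp SD was smaller than the worth of a single count in any library. The RppH mean was 83.0 times the untreated mean, with a ratio of pooled rates of 77.8 and a 95% counting interval of 26.2 to 381. It was 17.6 times the Dcp mean (pooled 17.8, 9.71 to 36.3). Dcp exceeded untreated RNA by a ratio of means of 4.72 (pooled 4.37, 1.15 to 24.4), a value that rests on 11 counts against 3. The exact two-sided permutation p was 0.1 in each of these comparisons, the smallest that 3 against 3 libraries allow, or 0.222 after Benjamini-Hochberg adjustment over the 20 permutation tests made. All 3 untreated counts were in RNA sample 1, so no ratio to untreated RNA can be given without that sample. Without RNA sample 2 or 3 the RppH ratio was 58.2 and 47.9 and the Dcp ratio was 3.03 and 3.30.

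Threonine pre-tRNAs were also highest after RppH, but they were seen in every untreated and Dcp library as well. Their summed level was 1.60, 1.40 and 1.86 TPM after RppH (44, 35 and 62 counts), 0.429, 0.171 and 0.207 TPM after Dcp (11, 7 and 6 counts), and 0.218, 0.0652 and 0.227 TPM in untreated RNA (9, 3 and 6 counts). The RppH libraries stood clear of the rest, while Dcp and untreated libraries overlapped. The means were 1.62 ± 0.229, 0.269 ± 0.139 and 0.170 ± 0.0909 TPM after RppH, after Dcp and in untreated RNA (SD, n = 3 each). RppH exceeded untreated RNA by a ratio of means of 9.53 (pooled 10.4, 95% counting interval 6.34 to 18.0; exact permutation p = 0.1, adjusted 0.222), but 0.926 when libraries were scaled by the median of ratios over the tested loci (exact permutation p = 0.9). RppH exceeded Dcp by a ratio of 6.03 (pooled 6.54, 4.22 to 10.5; exact permutation p = 0.1), but by 1.17 under the median of ratios (exact permutation p = 0.6). The Dcp mean was 1.58 times the untreated mean (pooled 1.59, 0.827 to 3.11), higher in 2 of 3 RNA samples, and did not differ beyond the spread (exact permutation p = 0.6), and this ratio was 0.794 under the median of ratios. On that scale, which moved log2 differences by -3.55 (RppH against untreated) and -1.13 (Dcp against untreated) and rests on 22 loci without a zero, the proline ratios were 8.64 (RppH to untreated), 2.64 (Dcp to untreated) and 3.27 (RppH to Dcp), with the same direction as before, but Dcp and untreated libraries then overlapped for proline (exact permutation p = 0.3).

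**Figure D1:**
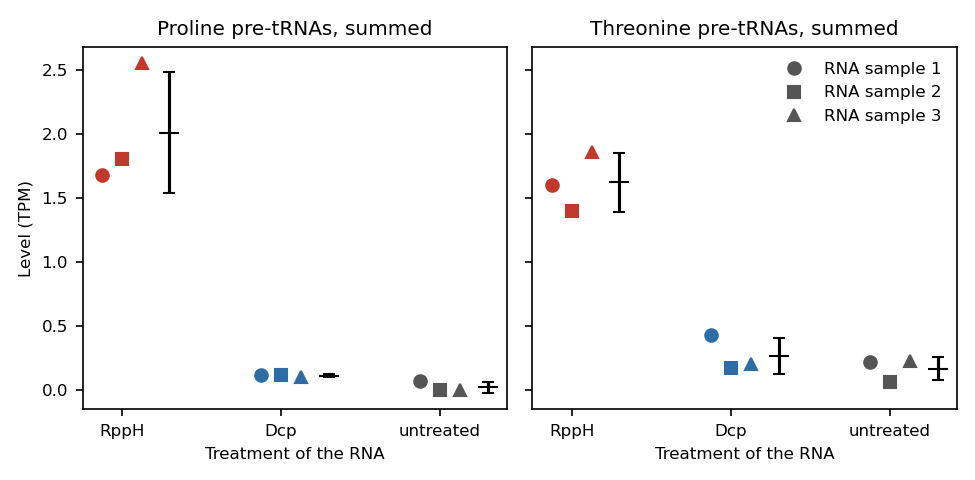
Summed level in TPM of the proline pre-tRNAs (left) and the threonine pre-tRNAs (right) after RppH, after Dcp and in untreated RNA; each symbol is a library, its shape gives the RNA sample, and bars give the mean ± SD of 3 libraries. The RppH libraries lie at 1.68 to 2.55 TPM for proline and 1.40 to 1.86 TPM for threonine, above all others on the library-total scale shown, while Dcp and untreated libraries overlap for threonine; scaled by the median of ratios, the threonine RppH mean is 0.926 times the untreated one.

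The balance between the amino acids differed with the treatment. Proline made up 51.1%, 56.3% and 57.8% of the proline and threonine counts after RppH, 21.4%, 41.7% and 33.3% after Dcp, and 25.0%, 0% and 0% in untreated RNA. The untreated shares rest on 12, 3 and 6 counts, and the exact binomial intervals of the zeros reach 70.8% and 45.9%. The mean share was 55.1 ± 3.51% after RppH, 32.1 ± 10.2% after Dcp and 8.33 ± 14.4% untreated (SD, n = 3 each). RppH exceeded untreated RNA by 46.7 percentage points and Dcp by 22.9 points, in 3 of 3 RNA samples and without overlap (exact permutation p = 0.1 each, adjusted 0.222). Dcp exceeded untreated RNA by 23.8 points (exact permutation p = 0.2, adjusted 0.4). A single gene, tRNA4-ThrAGT on scaffold 90, gave all 7 threonine counts of the Dcp library of RNA sample 2. It also gave 6 of the 9 in the untreated library of RNA sample 1. Without this gene the Dcp library of RNA sample 2 would hold proline counts only, so the RppH and Dcp shares would overlap. Counting each form once per library, an alternative chosen after the data were seen, left 2.49 points between RppH and Dcp (exact permutation p = 1.0) and 36.9 points between RppH and untreated RNA (exact permutation p = 0.1). This share does not depend on how libraries are scaled.

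Set against the other pre-tRNAs, the proline ratios were high and the threonine ratios were not. The 465 pre-tRNA genes of other amino acids had ratios of means of 12.3 for RppH to untreated, 1.88 for Dcp to untreated and 6.53 for RppH to Dcp. Alanine pre-tRNAs, which had ratios of 4.82, 1.43 and 3.37, weigh heavily in these: they held 25.2 ± 3.66% of all pre-tRNA counts after RppH, 51.9 ± 12.4% after Dcp and 65.3 ± 6.08% in untreated RNA. Without alanine the ratios of the other genes were 27.5, 2.80 and 9.81. Their pooled ratios, 28.1, 2.77 and 10.1, lay within the proline counting intervals (26.2 to 381, 1.15 to 24.4 and 9.71 to 36.3). By single class, leucine exceeded proline in each ratio of means (484, 27.4 and 17.7). Histidine did so for RppH to untreated (155) and Dcp to untreated (10.5), and cysteine for Dcp to untreated (5.76). The other classes with a ratio were below proline. Proline and threonine together made up 1.58 ± 0.252% of pre-tRNA counts after RppH, 1.06 ± 0.158% after Dcp and 0.952 ± 0.421% in untreated RNA (SD, n = 3 each; RppH minus untreated 0.625 points and RppH minus Dcp 0.520 points, exact permutation p = 0.1 each; Dcp minus untreated 0.105 points, exact permutation p = 0.8). With alanine left out of the total, an alternative chosen after the data were seen, the shares were 2.10 ± 0.255%, 2.32 ± 0.807% and 2.89 ± 1.46%, and the direction of each of these differences turned. In that total proline had 1.16 ± 0.197% after RppH, 0.736 ± 0.312% after Dcp and 0.322 ± 0.557% untreated, and threonine had 0.941 ± 0.077%, 1.59 ± 0.597% and 2.57 ± 1.22%.

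By level per listed gene after RppH, both amino acids lay in the lower part of the 22 classes that the gene names distinguish. Threonine, at 0.101 ± 0.0143 TPM per gene (SD, n = 3), was second from the bottom, above tryptophan at 0.0730 ± 0.0112 TPM. Proline, at 0.134 ± 0.0314 TPM per gene, was 6th from the bottom, within its spread of cysteine (0.128 ± 0.0368), isoleucine (0.123 ± 0.0325) and the suppressor class (0.117 ± 0.0858), and below valine (0.189 ± 0.0196). The ratio of RppH to untreated means could be formed for 20 classes with untreated counts. Proline ranked 3rd from the top there, at 83.0, on 3 untreated counts, and threonine 18th, at 9.53, above glutamine (8.12) and alanine (4.82). These ranks describe the list and were not tested.

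**Figure D2:**
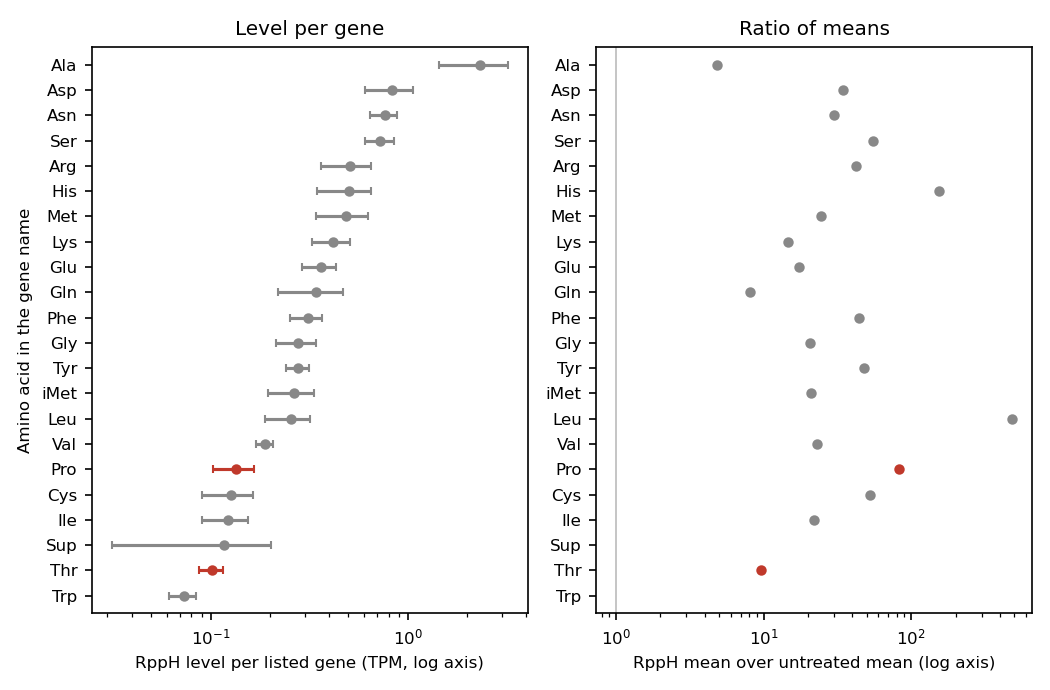
Level per listed gene after RppH (left, TPM on a log axis, mean ± SD of 3 libraries) and ratio of the RppH mean to the untreated mean on the library-total scale (right, log axis) for each amino acid class, with proline and threonine in red; classes with 0 untreated counts have no ratio. Threonine is second from the bottom by level and 18th of 20 by ratio (a ratio that is 0.926 with median-of-ratios scaling), while proline is 6th from the bottom by level and 3rd from the top by ratio.

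Among the proline anticodons, the genes named ProCGG, of which there were 6, together gave the highest mean after RppH, with overlapping libraries. ProCGG had 0.619, 0.681 and 1.23 TPM after RppH, 0, 0.0490 and 0 TPM after Dcp, and 0.0726, 0 and 0 TPM in untreated RNA. ProAGG, with 4 genes, had 0.401, 0.681 and 0.989 TPM after RppH, 0.117, 0.0245 and 0 TPM after Dcp, and 0 counts in untreated RNA. ProTGG, with 5 genes, had 0.656, 0.440 and 0.330 TPM after RppH, 0, 0.0490 and 0.103 TPM after Dcp, and 0 counts in untreated RNA. RNA sample 3 was the highest of the RppH libraries for ProCGG and ProAGG and the lowest for ProTGG. The RppH means, 0.843 ± 0.336, 0.690 ± 0.294 and 0.475 ± 0.166 TPM for CGG, AGG and TGG (SD, n = 3 each), did not differ beyond their spread. Against a floor of 3 counts over the untreated group, which corresponds to 0.0264 TPM, ProAGG was at least 27.0-fold and ProTGG at least 17.7-fold higher after RppH. ProCGG was higher by a ratio of pooled rates of 33.2 (95% counting interval 10.9 to 164). RppH exceeded Dcp in the pooled rates 17.0 times for ProAGG (6.30 to 64.3), 41.7 times for ProCGG (11.2 to 351) and 8.90 times for ProTGG (3.51 to 28.9).

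For threonine, the RppH libraries of AGT, CGT and TGT precursors overlapped, although TGT was well below the other anticodons of these in RNA sample 3. The anticodons also differed in what was seen without RppH. ThrAGT, with 6 genes, had 0.401, 0.400 and 1.02 TPM after RppH, 0.195, 0.171 and 0.172 TPM after Dcp, and 0.145, 0.0652 and 0.114 TPM in untreated RNA. ThrCGT, with 5 genes, had 0.546, 0.561 and 0.659 TPM after RppH, 0.156, 0 and 0 TPM after Dcp, and 0 counts in untreated RNA. ThrTGT, with 4 genes, had 0.656, 0.440 and 0.120 TPM after RppH, 0.0390, 0 and 0.0345 TPM after Dcp, and 0.0242, 0 and 0.114 TPM in untreated RNA. Untreated threonine precursors were thus mainly ThrAGT, with 12 of the 18 counts, followed by ThrTGT with 4 and ThrGGT with 2. The RppH means were 0.607 ± 0.357, 0.589 ± 0.0616 and 0.405 ± 0.270 TPM for AGT, CGT and TGT (SD, n = 3 each) and did not differ beyond their spread. The pooled RppH rate was 6.08 times the untreated one for ThrAGT (3.22 to 12.5), and ThrCGT was at least 22.5-fold higher after RppH. Dcp and untreated libraries of ThrAGT did not overlap (0.180 ± 0.0133 against 0.108 ± 0.0403 TPM, SD, n = 3 each), but the pooled ratio of 1.69 had a counting interval of 0.760 to 3.87. Different genes made up these values. After Dcp they were tRNA1-ThrAGT on scaffold 14a in RNA samples 1 and 3 (5 counts each) and tRNA4-ThrAGT on scaffold 90 in sample 2 (7 counts). The untreated counts were of scaffold 90 (6), scaffold 14a (3) and tRNA2-ThrAGT on scaffold 135b (3; 2 after RppH), each in a different library. The fourth anticodon, GGT, had a single gene and 5 counts: 2 after RppH, 1 after Dcp and 2 in untreated RNA.

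Counts were spread unevenly over the gene copies. Of the 31 genes, 29 had counts after RppH, 11 after Dcp and 6 in untreated RNA, of which 1 was a proline gene and 5 were threonine genes. Over all 496 listed pre-tRNA genes these numbers were 475, 260 and 110. Counts came from RppH libraries alone for 19 genes, 11 for proline and 8 for threonine, although with so few counts a gene can be missed in the other libraries. Counts in all 3 RppH libraries were found for 9 genes, 4 for proline and 5 for threonine. The numbers of genes seen only after RppH or in all 3 RppH libraries are not given here for all pre-tRNA genes. They describe the members and show nothing particular to them. The most abundant gene held 30.5% of the proline counts and 29.5% of the threonine counts, and the median gene had 5 counts for proline and 5.5 for threonine. A single count was all there was for 4 genes. How the authors assigned reads that match several copies was not given in the sources used here, so values of near-identical copies are uncertain for each copy.

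**Figure D3:**
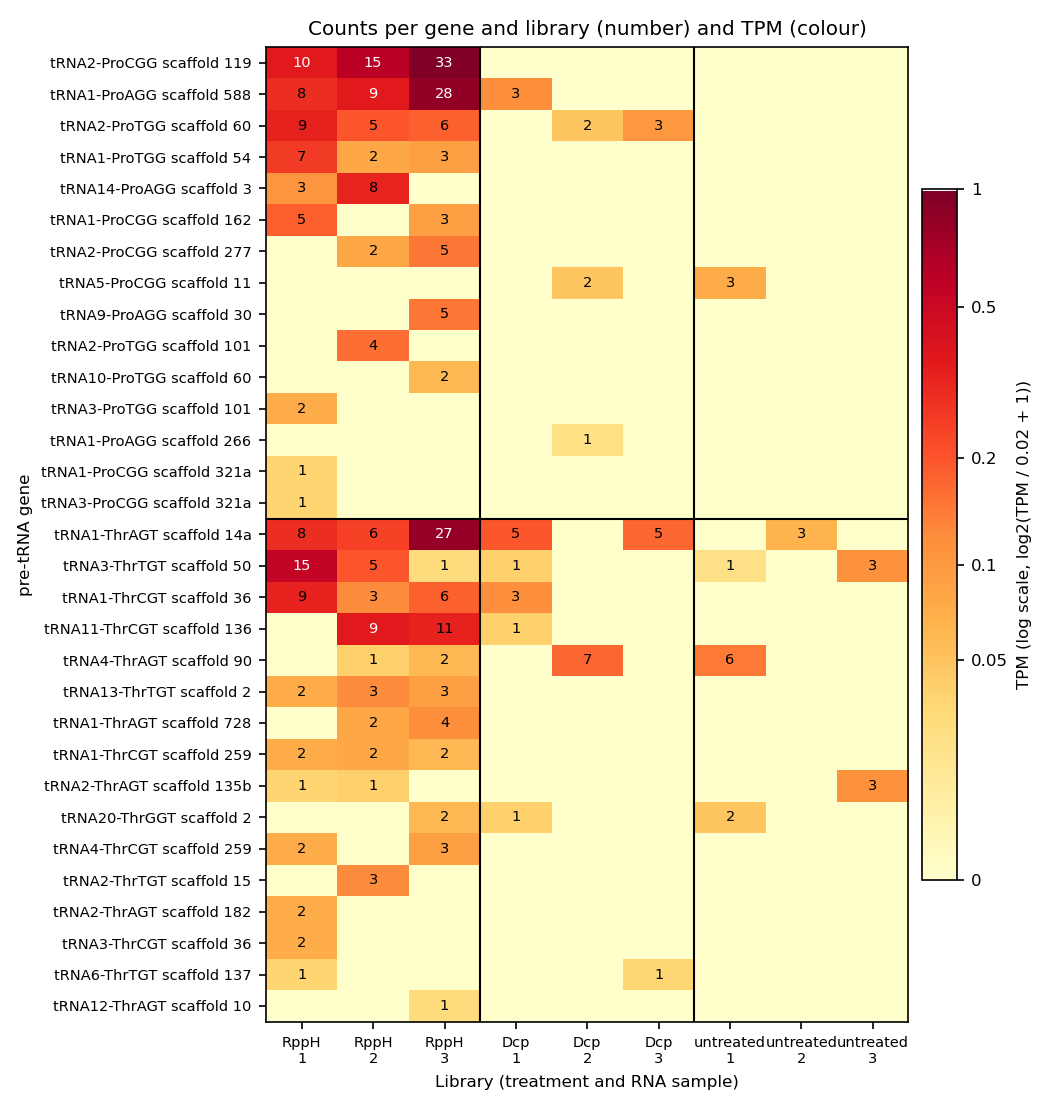
Counts (numbers) and level in TPM (colour, log scale) of each proline gene (upper block) and threonine gene (lower block), in rows, for the RppH, Dcp and untreated libraries of RNA samples 1 to 3, in columns; empty cells are 0. Counts gather in the RppH columns, where 29 of 31 genes have any, against 11 after Dcp and 6 in untreated RNA. Over all 496 listed pre-tRNA genes these numbers are 475, 260 and 110.

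The most abundant proline gene was tRNA2-ProCGG on scaffold 119 (Ccam0.32, 512300 to 512389, plus strand). It had 0.364, 0.601 and 0.989 TPM after RppH (10, 15 and 33 counts), 0 counts after Dcp and 0 counts in untreated RNA. The minimum of 10 counts for testing was taken over all 9 libraries, and each of the 5 tested proline genes reached it only through its RppH counts, which favours a call of higher after RppH. For each of these genes, no call against untreated RNA or against Dcp passed with TMM or the median of ratios. All 58 counts of the scaffold 119 gene came from the RppH libraries, where it was at least 25.6-fold above untreated RNA (edgeR adjusted p = 5.46e-05) and at least 21.5-fold above Dcp (edgeR adjusted p = 0.000611). Without RNA sample 1 the second of these did not pass (edgeR adjusted p = 0.0738). Next came tRNA1-ProAGG on scaffold 588 (3929 to 4017, plus strand), with 0.291, 0.360 and 0.839 TPM after RppH (8, 9 and 28 counts), 0.117, 0 and 0 TPM after Dcp (3, 0 and 0 counts) and 0 counts in untreated RNA. Its RppH libraries stood above all others, and it was at least 19.9-fold above untreated RNA (edgeR adjusted p = 0.000132). Its pooled RppH rate was 16.7 times the Dcp rate (95% counting interval 5.36 to 84.0, edgeR adjusted p = 0.0124), which did not pass under the RNA-sample block (adjusted p = 0.0951), without the RppH library of RNA sample 3 (0.0812) or without the Dcp library of RNA sample 2 (0.0659) or 3 (0.0657). Leaving out any 1 RNA sample also ended it (adjusted p = 0.0738, 0.0742 and 0.186 for samples 1 to 3). Together these 2 genes held 55.8% of the proline counts.

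Of the ProTGG genes, 2 reached the minimum of 10 counts. The first, tRNA2-ProTGG on scaffold 60 (788049 to 788135, plus strand), had 0.328, 0.200 and 0.180 TPM after RppH (9, 5 and 6 counts), 0, 0.0490 and 0.103 TPM after Dcp (0, 2 and 3 counts) and 0 counts in untreated RNA. It was the proline gene with the most Dcp counts. It was at least 8.84-fold above untreated RNA after RppH (edgeR adjusted p = 0.00218), and its pooled RppH rate was 4.45 times the Dcp rate (1.62 to 15.2, edgeR adjusted p = 0.148), a log2 difference of 2.11 (SE 1.34) that was -0.30 with TMM and -0.34 with the median of ratios. For Dcp against untreated RNA its unadjusted p was 0.0357 and its edgeR adjusted p was 0.186. The other, tRNA1-ProTGG on scaffold 54 (800017 to 800105, plus strand), had 0.255, 0.0801 and 0.0899 TPM after RppH (7, 2 and 3 counts) and 0 counts elsewhere, so the minimum likewise selected it in the direction tested. The floor put it at least 5.30-fold above untreated RNA (edgeR adjusted p = 0.0106; 0.0217 with no minimum) and at least 4.45-fold above Dcp (edgeR adjusted p = 0.0227; 0.0448 with no minimum). Under the RNA-sample block neither call passed (adjusted p = 0.119 and 0.201), nor did either without RNA sample 1 (0.115 and 0.145), and the first did not pass without RNA sample 3 (0.0554) or with DESeq2 (0.120) either. When single libraries or RNA samples were left out, the second passed only without the RppH library of RNA sample 2 or an untreated library.

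Of the remaining proline genes, tRNA14-ProAGG on scaffold 3 (1675815 to 1675901, minus strand) had 3, 8 and 0 counts after RppH, which is 0.109, 0.32 and 0 TPM, and 0 counts elsewhere. It was absent from the RppH library of RNA sample 3, in which the ProAGG gene on scaffold 588 was highest. All its 11 counts came from RppH libraries, so the minimum selected it in the direction tested. The floor put it at least 4.86-fold above untreated RNA (edgeR adjusted p = 0.0114; 0.0224 with no minimum) and at least 4.08-fold above Dcp (edgeR adjusted p = 0.0238; 0.0459 with no minimum). Neither passed with the block (adjusted p = 0.146 and 0.223), without RNA sample 1 (0.113 and 0.142) or without RNA sample 2 (0.163 and 0.214). With DESeq2 the comparison with untreated RNA did not pass (adjusted p = 0.222). The Dcp comparison also failed without RNA sample 3 (0.0937), without the RppH library of RNA sample 2 (0.0793) and without the Dcp library of RNA sample 1 (0.0584), 2 (0.0795) or 3 (0.0891). The gene tRNA1-ProCGG on scaffold 162 (269944 to 270032, plus strand), with 5, 0 and 3 counts after RppH and none elsewhere, was too low to test. The other 9 proline genes had 1 to 7 counts each. Against the pattern of the rest, tRNA5-ProCGG on scaffold 11 (2581398 to 2581479, minus strand; picked once its values were known) had 0 counts after RppH, 2 after Dcp in RNA sample 2 and 3 in the untreated library of RNA sample 1, and these 3 were all the untreated proline counts. The only other proline gene without RppH counts, tRNA1-ProAGG on scaffold 266 (112298 to 112369, plus strand; likewise picked), had a single Dcp count.

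The most abundant threonine gene was tRNA1-ThrAGT on scaffold 14a (178910 to 179001, plus strand). It had 0.291, 0.240 and 0.809 TPM after RppH (8, 6 and 27 counts), 0.195, 0 and 0.172 TPM after Dcp (5, 0 and 5 counts), and 0, 0.0652 and 0 TPM in untreated RNA (0, 3 and 0 counts). The RppH libraries stood above all others, and RNA sample 3 was the highest of them. Its pooled RppH rate was 18.1 times the untreated rate (5.78 to 91.5), a log2 fold change of 3.99 (SE 1.26, edgeR adjusted p = 0.00337). With TMM it was 0.72 (adjusted p = 0.612) and with the median of ratios 0.27 (adjusted p = 0.851). The value was 3.68 under the block for RNA sample (adjusted p = 0.0585), 3.69 when RNA sample 1 was left out (adjusted p = 0.0823) and 2.86 when RNA sample 3 was (adjusted p = 0.0998). RppH and Dcp differed by 1.92 on the log2 scale (SE 1.10, edgeR adjusted p = 0.111), a difference that was -0.57 with TMM and -0.63 with the median of ratios. Dcp against untreated RNA gave 2.07 (SE 1.32, edgeR adjusted p = 0.328).

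Threonine genes with the CGT anticodon lacked untreated counts. The gene tRNA1-ThrCGT on scaffold 36 (1774634 to 1774720, plus strand) had 0.328, 0.120 and 0.180 TPM after RppH (9, 3 and 6 counts), 0.117, 0 and 0 TPM after Dcp (3, 0 and 0 counts) and 0 counts in untreated RNA. It was at least 7.96-fold above untreated RNA (edgeR adjusted p = 0.00352; 0.0701 without RNA sample 1). This call did not pass with TMM (adjusted p = 0.211) or the median of ratios (0.269). Its pooled RppH rate was 6.68 times the Dcp rate (1.95 to 35.4, edgeR adjusted p = 0.122; 0.0216 without the Dcp library of RNA sample 1, the only one with counts). As abundant was tRNA11-ThrCGT on scaffold 136 (522678 to 522772, minus strand), with 0, 0.360 and 0.330 TPM after RppH (0, 9 and 11 counts), 0.0390, 0 and 0 TPM after Dcp (1, 0 and 0 counts) and 0 counts in untreated RNA. Its RppH library of RNA sample 1 had no count, while the gene on scaffold 36 was highest in that library. The scaffold 136 gene likewise reached the minimum only through its RppH counts. It was at least 8.84-fold above untreated RNA (edgeR adjusted p = 0.00304; 0.00442 with no minimum), which did not pass with the block (adjusted p = 0.0515), with DESeq2 (0.0633) or without RNA sample 3 (0.0583). Nor did this call pass with TMM (adjusted p = 0.198) or the median of ratios (0.254). Its pooled RppH rate was 22.3 times the Dcp rate (3.56 to 923, edgeR adjusted p = 0.0309), which passed neither with the block (adjusted p = 0.279) nor without RNA sample 1 (0.0738), 2 (0.157) or 3 (0.275), and it also failed without the RppH library of RNA sample 2 (0.0784) or 3 (0.128) or the Dcp library of RNA sample 2 (0.0948) or 3 (0.114). With TMM or the median of ratios this Dcp comparison did not pass either.

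Among the ThrTGT genes, tRNA3-ThrTGT on scaffold 50 (1771796 to 1771887, plus strand) was the most abundant, with 0.546, 0.200 and 0.0300 TPM after RppH (15, 5 and 1 counts), 0.0390, 0 and 0 TPM after Dcp (1, 0 and 0 counts), and 0.0242, 0 and 0.114 TPM in untreated RNA (1, 0 and 3 counts). RppH and untreated libraries overlapped, and in RNA sample 3 the untreated value was the higher. The log2 fold change of RppH against untreated RNA was 2.55 (SE 1.36, edgeR adjusted p = 0.0666), but -0.39 with TMM and -0.62 with the median of ratios. It passed without RNA sample 3 (4.63, adjusted p = 0.0168), without the RppH library (3.10, 0.0364) or the untreated library of that sample (4.08, 0.0289), and without the Dcp library of RNA sample 1 (2.57, 0.0477). The pooled RppH rate was 23.4 times the Dcp rate (3.76 to 967, edgeR adjusted p = 0.0221; 0.134 with the RNA sample as a block and 0.198 without the RppH library of RNA sample 1). This call was also lost without the Dcp library of RNA sample 2 (0.0814) or 3 (0.0891) and without RNA sample 1 (0.139), 2 (0.0764) or 3 (0.0729). With TMM or the median of ratios it did not pass either. In tRNA13-ThrTGT on scaffold 2 (3907163 to 3907245, plus strand), 2, 3 and 3 counts after RppH and none elsewhere were too few to test.

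Another threonine gene had fewer counts after RppH than after Dcp or in untreated RNA. Its RppH level was nevertheless above the untreated one in 2 of 3 RNA samples. The gene tRNA4-ThrAGT on scaffold 90 (591912 to 591999, minus strand) had 0, 0.0400 and 0.0599 TPM after RppH (0, 1 and 2 counts), 0, 0.171 and 0 TPM after Dcp (0, 7 and 0 counts), and 0.145, 0 and 0 TPM in untreated RNA (6, 0 and 0 counts). Its Dcp and untreated counts came from a single library each. The log2 fold change of RppH against untreated RNA was -0.51 (SE 1.61, edgeR adjusted p = 0.759), and 3.27 without the untreated library of RNA sample 1. Without this gene, an alternative chosen after the data were seen, the threonine ratio of RppH to untreated means was 13.1 in place of 9.53, and that of RppH to Dcp means was 7.49 in place of 6.03. The gene tRNA20-ThrGGT on scaffold 2 (2347625 to 2347711, minus strand), the only one with its anticodon, had 2 counts after RppH in RNA sample 3, 1 after Dcp in RNA sample 1 and 2 in the untreated library of RNA sample 1. The 9 threonine genes not described here had 1 to 6 counts each.

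Of the 10 members with at least 10 counts, 5 for proline and 5 for threonine, edgeR called 8 higher after RppH than in untreated RNA and 0 lower, against 90.9% called higher of the 340 loci tested in the whole table. These were all 5 tested proline genes and 3 of the 5 threonine genes (0 lower at an unadjusted p under 0.05). The RppH libraries lay above all untreated libraries for 6 of the 10, against 72.9% of all loci. Dcp against untreated RNA gave 0 calls among the 10, with 8.24% called higher in the whole table (1 of the 10 at an unadjusted p under 0.05, 0 with DESeq2), and 0 of 10 did not overlap, against 8.53%. RppH exceeded Dcp for 6 of the 10, 4 for proline and 2 for threonine, against 63.8% called of all loci, and 6 of the 10 did not overlap, against 65.3%. The minimum of 10 counts over all libraries favours genes that are high after RppH, so these shares support nothing about the members, and they are near the background. With the RNA sample as a block the counts were 4, 0 and 1, without RNA sample 1 they were 4, 0 and 0, and with TMM or the median of ratios they were 0, 0 and 0. Over the whole table, TMM called 58 loci higher and 8 lower for RppH against untreated RNA, in place of 309 and 0, and 4 higher and 3 lower for RppH against Dcp, in place of 217 and 0. The count of 6 for RppH against Dcp became 1 without RNA sample 2, RNA sample 3, or the Dcp library of either, and 3 without the RppH library of RNA sample 3, and it was 4 without the RppH library of RNA sample 1 or 2.

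The sequenced precursors were 72 to 95 nt long. For proline the count-weighted mean length was 85.3, 84.3 and 86.5 nt after RppH, 83.7, 81.2 and 86.0 nt after Dcp, and 81.0 nt in the only untreated library with counts. For threonine it was 84.5, 87.5 and 88.7 nt after RppH, 87.1, 75.0 and 88.0 nt after Dcp, and 77, 88.0 and 84.5 nt in untreated RNA. The treatments overlapped for both. For proline RppH exceeded Dcp by 1.72 nt (85.3 ± 1.08 against 83.6 ± 2.40 nt, SD, n = 3 each, exact permutation p = 0.4). For threonine the means were 86.9 ± 2.17, 83.4 ± 7.26 and 83.2 ± 5.62 nt (SD, n = 3 each), and no comparison went beyond the spread (RppH minus untreated 3.74 nt, exact permutation p = 0.5; Dcp minus untreated 0.197 nt, p = 1.0; RppH minus Dcp 3.54 nt, p = 0.6). The last of these was -0.941 nt without RNA sample 2. Pre-tRNAs of other amino acids averaged 88.2 ± 0.297 nt after RppH, 86.4 ± 0.291 nt after Dcp and 85.9 ± 0.407 nt untreated.

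Length after RppH differed between anticodons as their main genes did. It was 88.7 ± 0.484 nt for ProCGG, 83.5 ± 1.04 nt for ProAGG and 82.1 ± 4.02 nt for ProTGG (SD, n = 3 each), so that every ProCGG library lay above every ProAGG and ProTGG library. For threonine it was 88.9 ± 1.51 nt for AGT, 86.7 ± 2.60 nt for CGT and 83.3 ± 1.54 nt for TGT, where AGT and TGT libraries did not overlap. These lengths follow a few genes. The ProCGG gene on scaffold 119 was sequenced mainly as an 89-nt RNA, with 48 of its 58 counts (7, 15 and 26 after RppH), followed by a 90-nt form with 8 counts. The ProCGG gene on scaffold 277 (93322 to 93410, plus strand; also picked by its values) was seen in a single 89-nt form with 7 counts, all after RppH. The ThrAGT gene on scaffold 14a was mainly 92 nt (16 counts after RppH and 1 after Dcp) and 91 nt long, where a form with the usual start had 13 counts after RppH and 1 after Dcp, and a form starting 1 nt later had 5 after Dcp and 0 after RppH. The main forms of the ThrTGT gene on scaffold 50 were shorter, at 82 nt (9 counts, all after RppH) and 83 nt (5 after RppH and 4 in untreated RNA). All forms of that gene ran from 74 to 92 nt, with 2 RppH counts at 92 nt.

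**Figure D4:**
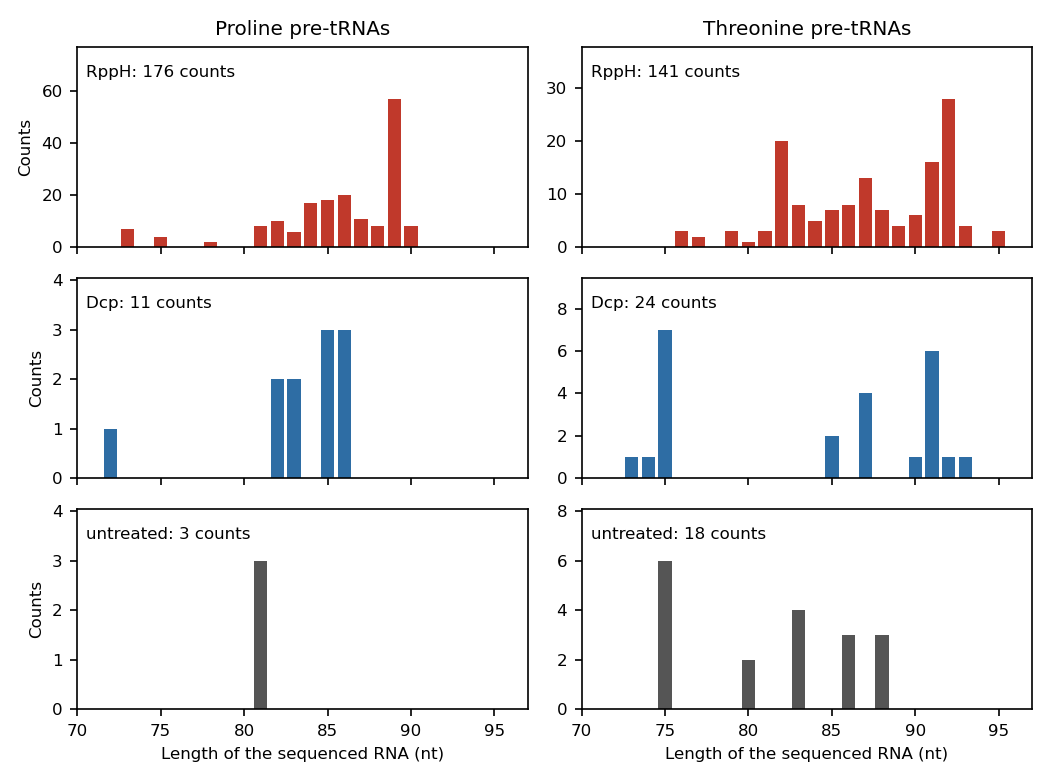
Counts by length in nt of the proline (left) and threonine (right) pre-tRNAs after RppH, after Dcp and in untreated RNA (top to bottom), summed over 3 libraries each; the count axes differ between panels. The highest RppH bar is at 89 nt for proline and 92 nt for threonine, and the 75-nt bar for threonine holds 7 counts after Dcp and 6 in untreated RNA.

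Short forms, of at most 77 nt (a limit chosen after the data were seen), were a small part of the counts after RppH. They made up 16 of 317 counts after RppH (5.05%, 95% exact binomial interval 2.91 to 8.07%), 10 of 35 after Dcp (28.6%, 14.6 to 46.3%) and 6 of 21 in untreated RNA (28.6%, 11.3 to 52.2%). For the other pre-tRNAs the shares were 2.47%, 2.41% and 2.37% in the same order. Proline alone had 6.25%, 9.09% and 0% (of 176, 11 and 3 counts), and threonine 3.55%, 37.5% and 33.3%. All 6 short untreated counts of the members and 7 of their 10 short Dcp counts were a 75-nt form of the ThrAGT gene on scaffold 90, each in a single library. This form shared its 5′ end with the 85-nt and 88-nt forms of the gene that were seen after RppH, and ended 10 and 13 nt earlier at its 3′ end. Short forms with the commonest 5′ end of their gene were also seen after RppH, as in the 73-nt form of the ProTGG gene on scaffold 60 (3 counts), whose 3′ end lay 13 nt before the commonest one. Of the 16 short RppH counts, 6 were the only form of their gene (tRNA2-ProTGG and tRNA3-ProTGG, both on scaffold 101, with 4 and 2 counts), for which a comparison of ends has no content.

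The 5′ ends of the precursors were uniform and the 3′ ends were not. Of the proline counts, 174 of 176 after RppH (98.9%, 95% exact binomial interval 96.0 to 99.9%), 11 of 11 after Dcp and 3 of 3 in untreated RNA began at the commonest 5′ end of their gene. Of the threonine counts these were 131 of 141 after RppH (92.9%, 87.3 to 96.5%), 18 of 24 after Dcp (75.0%, 53.3 to 90.2%) and 16 of 18 in untreated RNA (88.9%, 65.3 to 98.6%). For the other pre-tRNAs the shares were 92.3% after RppH, 94.0% after Dcp and 94.7% in untreated RNA. The commonest end of a gene was taken from these same counts, most of them RppH counts, so the shares are only a description. A gene with a single form reaches 100% by definition. The 3 untreated proline counts were 1 form of tRNA5-ProCGG on scaffold 11. Per library no difference between treatments went beyond the spread. The largest was for threonine, where Dcp lay 23.4 percentage points below untreated RNA (69.2 ± 45.7% against 92.6 ± 12.8%, SD, n = 3 each, exact permutation p = 0.7), and it came from RNA sample 3, with 16.7% after Dcp and 100% untreated. There 5 counts of the ThrAGT gene on scaffold 14a began 1 nt inside the usual start. Without that sample Dcp was 6.57 points above untreated RNA, and counting starts within 1 nt of the commonest it was 7.41 points above.

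A single 5′ end was found for 25 of the 31 genes (80.6%), 14 for proline and 11 for threonine, against 56.3% of the other pre-tRNA genes. The median gene had 5 counts among the members and 11 among the others, and a gene with fewer counts can show fewer ends; 11 of the 31 and 91 of the 465 had a single form. Among genes with at least 10 counts, which can show more than 1 end, these were 7 of 10 against 113 of 257 (44.0%), with medians of 23 and 30 counts per gene. More 3′ than 5′ ends were found for 9 of the 10, against 91.8% of the 257, and the reverse for 0 of the 10, against 3.11%. The ProTGG gene on scaffold 60 shows the pattern: 5 forms of 73 to 87 nt, all starting at position 788049, ended at 5 different positions. The ProAGG gene on scaffold 588 began at position 3932 in 46 of its 48 counts and ended at 6 neighbouring positions, with 17 counts at the commonest. On scaffold 136, the ThrCGT gene was the exception, with 3 different 5′ ends within 6 nt and 3 different 3′ ends. In the ThrGGT gene on scaffold 2, the untreated form of 80 nt began 3 nt after and ended 3 nt before the 86-nt form seen after RppH, so both ends differed.

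**Figure D5:**
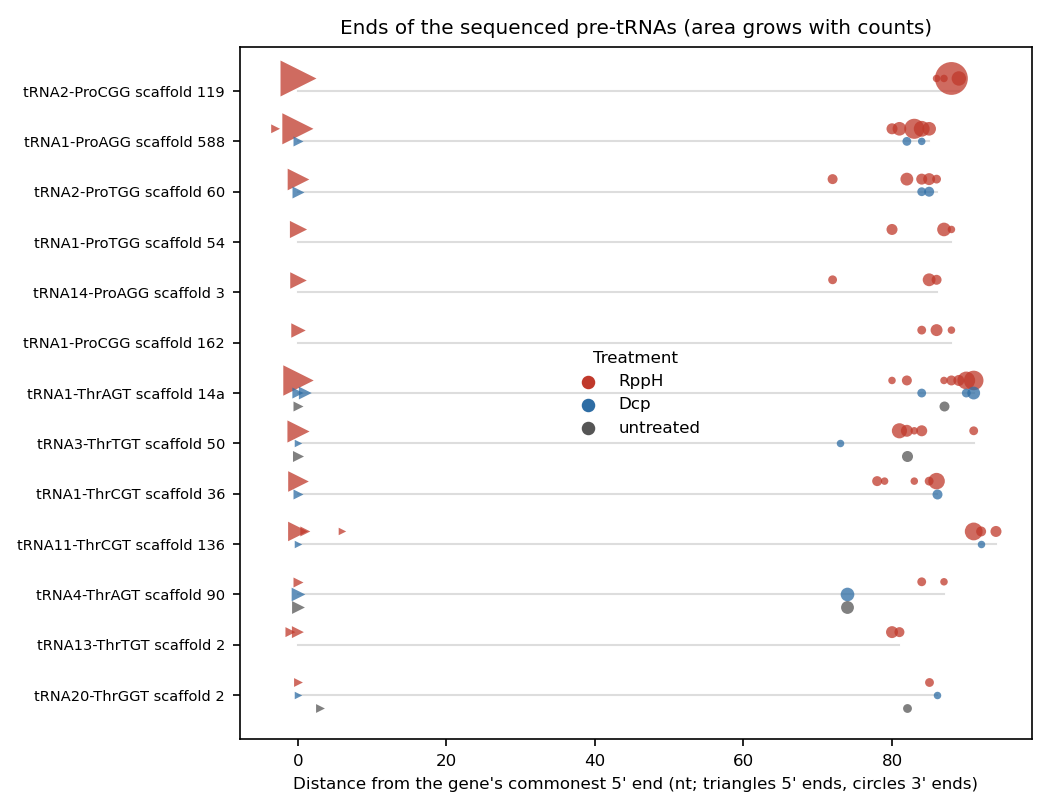
Positions of 5′ ends (triangles) and 3′ ends (circles) of the 13 genes described with full values, as distance in nt from the commonest 5′ end of each gene, for RppH, Dcp and untreated RNA; symbol area grows with counts and the grey line spans the forms. The 5′ ends stack at 0, with the ThrCGT gene on scaffold 136 reaching 6 nt, while the 3′ ends spread over several positions in most genes.

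Individual forms were seldom seen again in other libraries. Of the 92 forms, 68 were seen in a single library (73.9%, against 62.9% for the other pre-tRNAs), and 39 of those had at least 2 counts there. Forms in at least 3 libraries numbered 8. After RppH only, 70 forms were seen, while 17 were seen after Dcp and 6 in untreated RNA, and 2 were shared by untreated and RppH libraries. These 2 were the 88-nt form of the ThrAGT gene on scaffold 14a, with 1 RppH and 3 untreated counts, and the 83-nt form of the ThrTGT gene on scaffold 50, with 5 RppH and 4 untreated counts. The other pre-tRNAs had 2223 forms, of which 422 were in at least 3 libraries and 1569 were seen after RppH only. Of the same 2223 forms, 573 were seen after Dcp, 181 in untreated RNA and 136 in both untreated and RppH libraries.

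Some copies lay on the same scaffold. On scaffold 259, tRNA4-ThrCGT (89783 to 89868, minus strand) and tRNA1-ThrCGT (134352 to 134437, plus strand) lay 44483 nt apart on opposite strands, with 5 and 6 counts, and 4 lengths were found for both, 76, 77, 82 and 86 nt. On scaffold 321a, tRNA1-ProCGG (33805 to 33890, plus strand) and tRNA3-ProCGG (144626 to 144711, minus strand) lay 110735 nt apart, and each had a single 86-nt count from the RppH library of RNA sample 1. How reads shared by identical copies were assigned was not tested. On scaffold 60, 31842 nt separated the well-sampled ProTGG gene (25 counts) from tRNA10-ProTGG (819978 to 820059, minus strand), which had 2 counts and no length in common with it. These pairs were chosen after their values were seen.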

How the data were processed

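Short RNAs were sequenced from 3 RNA samples, each as an RppH-treated, a Dcp-treated and an untreated library; per the labels' protocols the libraries were made by splint ligation and hold stranded, full-length RNAs of about 10 to 400 nt. The authors deposited whole-number counts per RNA interval and library, per the file header. The deposited TPM values equalled the count divided by 1 constant per library (largest relative deviation 3.1e-15), so they are scaled by a library total and not by length; what that total counts is not stated. Per the submitters' processing notes, bedtools, SAMtools, Bowtie2 and cutadapt were used (no versions given), and the handling of reads matching several copies is not stated. Coordinates are those of the deposited table, on scaffolds named Ccam0.32, counted from 1, and a gene is spanned by the outermost ends of its forms.

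Counts were summed per gene name (the snRNA copies thereby per type, giving 4 loci). Loci with at least 10 counts over the 9 libraries were fitted with edgeR 4.0.16 in R 4.3.3 (quasi-likelihood test, all 3 treatments in 1 fit, log library totals recovered from the TPM constants as offsets, Benjamini-Hochberg adjustment over all tested loci, threshold 0.05), and the procedure was tested on simulated data. The SE of a log2 fold change is the fold change divided by the square root of its F value. Totals, shares, lengths and ends per library were compared with exact two-sided permutation tests (scipy 1.17.1), for which 3 against 3 libraries allow no p below 0.1. Where a group had no count, the fold is a bound against 3 counts over the group. Ratios of pooled rates carry exact 95% intervals, and intervals and floors cover counting error only.

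Per the labels, libraries of the same number come from the same RNA sample, so the numbers pair the libraries. Deviations from the treatment means correlated between libraries of the same RNA sample with r from -0.296 to 0.205. The alternatives were the RNA sample as a replicate block, TMM and median-of-ratios scaling, DESeq2 1.42.0, other minimum counts, single forms, and leaving out each library or RNA sample. Members and lists were chosen with earlier results of these data known. Full values are given for the 6 genes with the most counts of each amino acid and the most abundant gene of each anticodon (13 genes); members called for Dcp against untreated RNA would have been added, but there were 0. Forms are described for the most abundant gene of each anticodon.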

Additional observations from a re-analysis of the deposited data

How the results depend on the processing

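The limits are few counts per gene, 3 libraries per treatment and the choice of scale. Of the 10 tested genes, 8 were called for RppH against untreated RNA, 0 for Dcp against untreated RNA and 6 for RppH against Dcp. In the same order, TMM and the median of ratios gave 0, 0 and 0, DESeq2 5, 0 and 1, a minimum of 30 counts 3, 0 and 2 (of 3 tested), single forms 7, 0 and 2 (of 8 tested), and no minimum 8, 0 and 5 (of 31 tested). The block for the RNA sample gave 4, 0 and 1; over all loci it moved the calls from 309 to 187, 28 to 18 and 217 to 57, and no member call changed with the block beyond those given above. Leaving out a library or an RNA sample gave 4 to 9, 0 to 0 and 0 to 6. TMM shifted the scale by -3.22, -0.84 and -2.38 and the median of ratios by -3.55, -1.13 and -2.42 (log2). With the median of ratios the threonine ratio was 0.926 for RppH to untreated RNA, 0.794 for Dcp to untreated RNA and 1.17 for RppH to Dcp. The threonine length difference was -2.97 nt for Dcp minus untreated RNA with genes weighted equally, and without single RNA samples it ran from -4.75 to 6.80 nt there and from -0.941 to 6.61 nt for RppH minus Dcp. The threonine share at the commonest 5′ end differed by 4.01, 7.41 and -3.39 points (RppH minus untreated, Dcp minus untreated, RppH minus Dcp) when ends within 1 nt were counted, and by -11.8 to 7.89, -41.7 to 6.57 and -4.03 to 43.0 points without single RNA samples. Without alanine the share of proline and threonine among pre-tRNA counts differed by -0.785, -0.564 and -0.221 points; the difference between Dcp and untreated RNA was -0.388 points with each form counted once, and -0.0376 to 0.223 points without single RNA samples. Among single genes, log2 values turned for tRNA3-ThrTGT on scaffold 50 (RppH against untreated RNA, -0.39 with TMM and -0.62 with the median of ratios; Dcp against untreated RNA, -3.89 to 0.37 when libraries were left out), tRNA1-ThrAGT on scaffold 14a (RppH against Dcp, -0.57 and -0.63) and tRNA2-ProTGG on scaffold 60 (RppH against Dcp, -0.30 and -0.34). For tRNA4-ThrAGT on scaffold 90 they ran from -1.71 to 3.86 for RppH against untreated RNA, -4.33 to 4.63 for Dcp against untreated RNA and -2.04 to 3.27 for RppH against Dcp when libraries or RNA samples were left out, and Dcp against untreated RNA gave -0.51 with TMM, -0.75 with the median of ratios and -0.13 with the block. The cause of these changes was not tested. Proline ratios to untreated RNA had no value without RNA sample 1.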
